A study of Mus musculus with 12 samples.

Results

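Bone marrow-derived macrophages (BMMs) without IGF2BP2 were compared with WT BMMs in the untreated state (M0), in which no cytokine other than the growth factor of the culture was added. The members are 6 of the 12 libraries of the RNA-Seq experiment, chosen by genotype and treatment label, with 3 KO and 3 WT libraries from 1 mouse each (n = 3 mice per group), and all genes with enough counts were followed in them. In the KO mice, loxP sites lay around exons 4 and 5 in both copies of Igf2bp2 (Igf2bp2 fl/fl), and the Lyz2 locus, in which the Cre gene is inserted, drove recombination. This locus is active in macrophages, monocytes and neutrophils. The WT mice were littermates without floxed Igf2bp2, some of which carried Cre. Marrow cells of mice aged 3 to 4 months were grown for 6 days with 50 ng/ml of M-CSF, the growth factor that drives macrophage differentiation. The other 6 libraries came from the same mice after 20 ng/ml IL-4 for 8 h (M2) and were used to ask whether a genotype difference seen in M0 differed in M2. They also entered the fit that set the filter and the spread behind the M0 calls.

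IGF2BP2 is an RNA-binding protein of the IGF2BP family. Its members bind target transcripts, many of them at N6-methyladenosine, and are known for keeping these transcripts stable and translated. A resting macrophage keeps several programmes at a low tone that are steeply raised on stimulation, among them NF-kB signalling with its built-in inhibitors, interferon-stimulated genes, the antioxidant genes of NRF2, and the chaperones of the endoplasmic reticulum (ER). RNA levels in a bulk library sum over all cells, so that fewer cells of a type and less RNA per cell cannot be told apart in any of the values that follow.

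Values are given as CPM, counts relative to the total of the library, scaled with the TMM method of edgeR. A gene was called when the p of edgeR's quasi-likelihood test, adjusted by Benjamini-Hochberg over the 12846 genes tested, was under 0.05, and fold changes are log2 of KO over WT, given ± SE. That KO and WT values do not overlap is stated below mostly for called genes, where the choice makes it likely. The share of such genes over all genes was not counted. Totals lay between 24942666 and 37054582 counts per library. The first principal component held 37.7% of the variance and separated the genotypes. The second held 26.1% and set the third WT library apart (WT1 to WT3 for the WT libraries, KO1 to KO3 for the KO libraries), at -31.9 against 20.9 and 12.7 for WT1 and WT2. Relative to its group, WT3 was also lower in long genes, with a correlation of -0.291 across genes between its deviation and the log2 transcript length, against 0.275 in WT1 and -0.0844 to 0.068 in the KO libraries.

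All libraries carried the markers of macrophages, among them Csf1r at 1617, 1599.6 and 1626 CPM in WT against 1678, 1733 and 1629 CPM in KO. The 9 macrophage markers summed to 5396 to 5576 CPM in WT and 5497 to 5631 CPM in KO, with Mrc1 and C1qa called lower and Itgam called higher. Of the T and NK cell markers 8 of 10 were at 0 in all 6 libraries, and in the B cell, dendritic cell and mast cell lists, with 2 genes tested in each, edgeR and DESeq2 called 0 (0, 1 and 2 at an unadjusted p under 0.05). Of the 17 neutrophil and granule markers 8 were tested, and 6 of these had an unadjusted p under 0.05 with edgeR. Ltf, Ngp and S100a9 were called lower in KO and Mmp8 was called higher. S100a8 (-0.95 ± 0.42) and Lcn2 (-0.92 ± 0.35) were lower without a call, while Mmp9 and Csf3r had -0.06 ± 0.17 and -0.15 ± 0.17. Ly6g was at 0 and Elane and Mpo stood at no more than 0.0779 CPM. The call of Ngp was lost without WT2, KO1, KO2 or KO3 (edgeR adjusted p from 0.06 to 0.09) and with limma, and that of S100a9 without WT2, KO2 or KO3 (edgeR adjusted p from 0.0554 to 0.0691) and with the library number as a block. Ltf, an iron-binding granule protein, measured 6.21, 7.72 and 2.61 CPM in WT against 1.58, 1.22 and 1.13 CPM in KO. The 12 stromal and endothelial markers summed to 80.7, 49.4 and 68.1 CPM in WT and to 50.7, 51.9 and 21.3 CPM in KO, and with edgeR 0 of the 11 tested were called (0 with DESeq2 and 1 at an unadjusted p under 0.05).

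Igf2bp2, the targeted gene, measured 118, 99.7 and 76.5 CPM in the WT against 95.9, 84.9 and 91.6 CPM in the KO libraries, with a log2 fold change of -0.11 ± 0.13 (edgeR adjusted p = 0.656). The groups overlapped, and since reads from the exons that remain are counted, the level of the whole gene does not check the deletion. The paper checked it in BMMs by qPCR and Western blot, where IGF2BP2 was close to undetectable in KO. Its paralog Igf2bp3 fell from 15.6, 16.9 and 16.1 to 4.7, 3.55 and 2.71 CPM (-2.16 ± 0.14, edgeR adjusted p = 1.18e-05), where reads matching both genes were divided between them, and Igf2bp1 was too low to be tested. Lyz2, the lysozyme gene that carries Cre, fell from 7029.7, 7815 and 10544 to 22.1, 33.2 and 25 CPM, so that the loss of IGF2BP2 and the loss of Lyz2 transcript cannot be told apart in any comparison of these libraries. Within 10 Mb of Igf2bp2 on chromosome 16, 10 of 130 genes were called (7.69%), and within 10 Mb of Lyz2 on chromosome 10, 5 of 69 (7.25%), both below the share over all genes. On chromosome Y 2 of 5 were called (40%), Gm21860 and Gm21748, named here after their values were seen. Both were listed with the same values, 0.0323, 0.131 and 0.351 CPM in WT against 1.1, 1.25 and 0.885 CPM in KO, so that their reads cannot be told apart, and the calls were not made with the library number as a block. Gm47283, the highest of the 5, measured 0.097, 60.5 and 71.8 CPM in WT against 145, 154 and 134 CPM in KO. It was not called (1.72 ± 1.01, edgeR adjusted p = 0.315), and WT1 lay far below WT2 and WT3. Xist, transcribed from the inactive X chromosome of females, measured 910.1, 802 and 553 CPM in WT against 778, 750.4 and 820.4 CPM in KO, and the Y genes Ddx3y, Eif2s3y, Kdm5d and Uty were at 0 in all 6 libraries.

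Over all genes, 9.78% were called in M0, 5.5% higher and 4.27% lower in KO. Most changes were small. Of the 1256 called genes, 925 had a log2 fold change under 0.5 in size, and the median size was 0.33, while 30 rose and 61 fell by a log2 of 1 or more. The number called was 458 without WT2, 545 without KO2, 580 without KO3 and 753 without KO1, and 1159 and 1458 without WT1 and WT3. With the 6 untreated libraries fitted alone it was 947. Called genes that rose had a median transcript length of 2998 nt against 2422 nt for those that fell and 2371 nt for all genes tested, and the part of length in the calls was not tested.

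Genes were then grouped into 57 lists of pathways, families and organelles, glycolysis, mitochondria and migration left aside. Calls in M0 were counted for each list. Of the 1532 genes on the lists, 1349 were tested, 165 had too few counts and 18 were not analysed here. Among those tested 17.9% were called, 131 higher and 110 lower. The calls of each list are to be read beside this share and the 9.78% of all genes. The plot of shares by list places the lists in order. Among the called genes alone, decreases outnumbered increases in NF-kB regulators (12 against 0, of 27 tested), ribosome biogenesis (12 against 0, of 30), ID and BMP signalling (7 against 0, of 34), NRF2 targets (7 against 2, of 26) and Fc receptors (3 against 0, of 10). Increases outnumbered decreases among the calls of ER folding factors (11 against 0, of 27), actin regulators (9 against 1, of 42), interferon-stimulated genes (9 against 1, of 46) and Toll-like receptors (5 against 1, of 24). In each of these 9 lists most of the genes tested were not called. The 9 were not picked by a set rule, and calls were one-sided in others too. Higher calls led in lysosomal genes (8 against 2, of 56), iron handling (3 against 0, of 21), hypoxia (3 against 0, of 24), the cell cycle (3 against 0, of 69) and the MS4A family (3 against 0, of 6). Lower calls led in inflammasome genes (3 against 0, of 18).

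**Figure D1:**
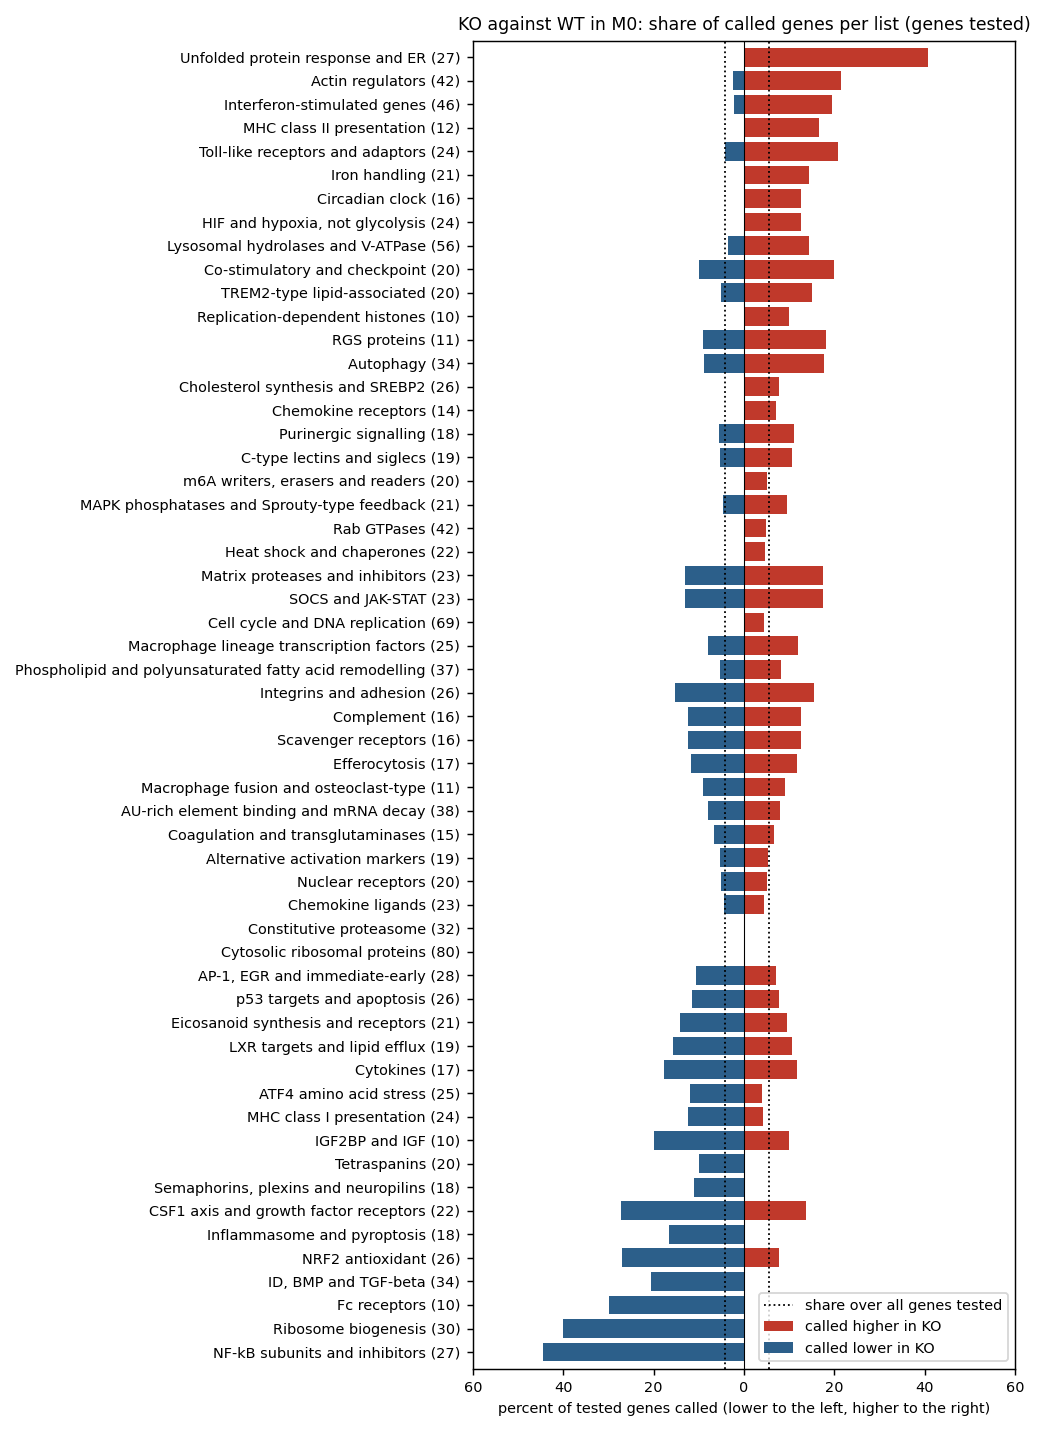
Share of the tested genes of each list (their number in brackets) that was called higher (red, to the right) or lower (blue, to the left) in KO than in WT in M0, in percent, for lists with at least 10 genes tested, the dotted lines marking the shares over all genes (5.5% higher, 4.27% lower). The longest bars are those of NF-kB subunits and inhibitors on the lower side and of the unfolded protein response and ER on the higher side.

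NF-kB transcription factors are held in the cytoplasm by inhibitors of the IkB type, and once active they raise the genes of these inhibitors and of their own precursors, a negative feedback. Of the 27 genes of the list, all of which were tested, 12 fell and 0 rose (0 also at an unadjusted p under 0.05 and with DESeq2), with a median log2 fold change of -0.18 against -0.000656 over all genes. Nfkb2, the precursor of the p52 subunit, measured 175, 183 and 167 CPM in WT against 104, 109 and 98.1 CPM in KO, and changed by -0.76 ± 0.07 (edgeR adjusted p = 0.000151). All 3 KO values lay below all 3 WT values. Tnip1, which binds the deubiquitinase A20 and dampens signalling, measured 167, 184 and 180.1 CPM in WT against 118, 129 and 119 CPM in KO (-0.54 ± 0.05, edgeR adjusted p = 0.000177). A20 itself, encoded by Tnfaip3, fell from 78.1, 83.7 and 79.3 to 57.7, 57.8 and 57.3 CPM (-0.48 ± 0.06, edgeR adjusted p = 0.000707). The groups did not overlap in either gene. Also lower were the subunit Relb (-0.48 ± 0.07, edgeR adjusted p = 0.00189), the inhibitor Nfkbie (-0.54 ± 0.09, edgeR adjusted p = 0.00299), the adaptor Traf1 (-0.55 ± 0.09, edgeR adjusted p = 0.00349) and Nfkb1, the precursor of p50 (-0.33 ± 0.06, edgeR adjusted p = 0.00851).

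Other members did not pass the test. The subunit Rel had a log2 fold change of 0.09 ± 0.17, edgeR adjusted p = 0.799. The subunit Rela had 0.00 ± 0.04, the kinases Ikbkb and Chuk had -0.00 ± 0.05 and -0.02 ± 0.06, and the adaptor Traf6 had 0.10 ± 0.08, these 4 being chosen after their values were seen. The number lower was 11 without WT1, 9 without WT3 or KO1 and 8 without WT2, KO2 or KO3. In M2 the median of the list was 0.07, and 4 genes were called, 14.8% against 2.68% of all genes. They were Nfkbib (0.28 ± 0.06), Tnip1 (0.24 ± 0.06), Traf1 (0.50 ± 0.11) and Tnfaip2 (0.30 ± 0.07), all higher in KO, of which Nfkbib and Tnfaip2 are named after their values were seen. The number called in M2 was 5 with DESeq2, 0 to 1 without 1 M2 library, 1 with the M2 libraries fitted alone, and 0 with limma on log2(TPM + 1) or with the library number as a block. Between the states, 10 of the 12 genes that fell in M0 also passed the test of the difference between M0 and M2. With the mouse as a block, all 12 passed it. Without the block, 3.24% of all genes and 281 of the 1256 genes called in M0 passed. For Nfkb2 the difference was -0.79 ± 0.10 (edgeR adjusted p = 0.00363) and for Tnip1 -0.79 ± 0.08 (edgeR adjusted p = 0.00114). As the M0 values enter both tests, the calls for the difference are not independent of those in M0.

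**Figure D2:**
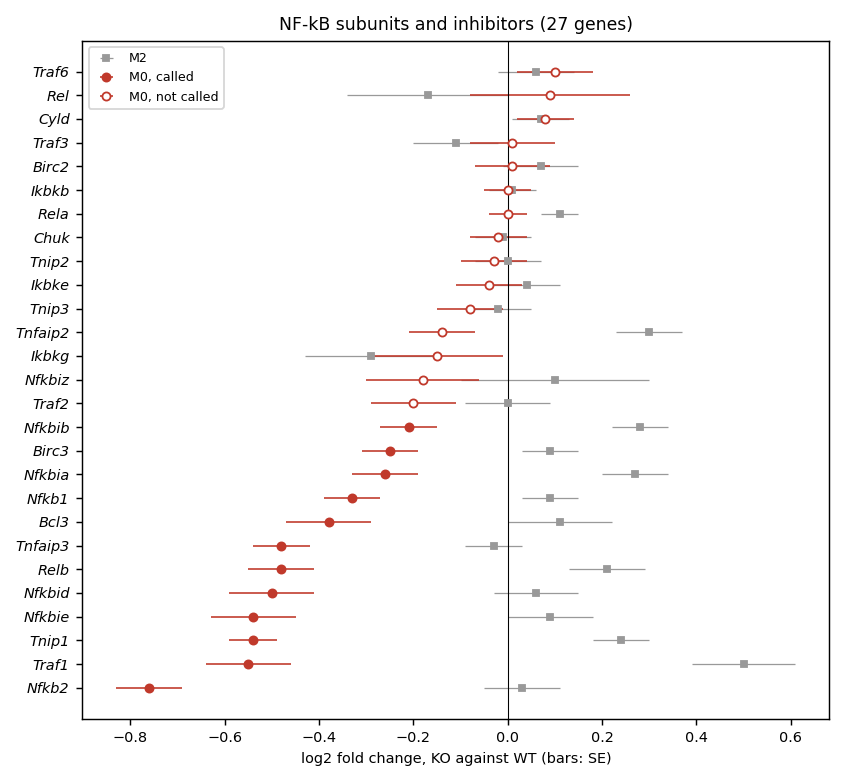
Log2 fold change of KO against WT (horizontal axis, bars are SE) for the 27 genes of the NF-kB list, in M0 (red, filled where called) and in M2 (grey squares). In M0, 12 genes lie left of 0 and are called, from Nfkb2 at -0.76 upwards, while Rela and Ikbkb lie at 0.

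The promoters of called members were read in the 300-base windows of RefSeq (build GRCm38.p6, from 250 bases before to 50 after the transcript start), to show which letters they share. The kappaB consensus was found on either strand in 8.46% of all 32851 windows and for 12.2% of the 9615 tested genes with a window, for 12 of the 23 NF-kB list genes with one and for 7 of the 10 called. The list was composed of known targets among others, and a match is not a binding site shown here. Each line gives 30 bases, 5′ to 3′ along the gene, with the matching letters in capitals, at chr19:46305695-46305724 (Nfkb2), chr17:45555584-45555613 (Nfkbie), chr10:19015516-19015545 (Tnfaip3) and chr11:54962979-54963008 (Tnip1), the first 2 on the plus and the others on the minus strand.
Nfkb2: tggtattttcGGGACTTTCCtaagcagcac
Nfkbie: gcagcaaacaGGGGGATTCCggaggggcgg
Tnfaip3: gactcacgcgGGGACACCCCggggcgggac
Tnip1: ctccatcatgGGGGAATTCCcctcctgcct

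Icam1, an adhesion molecule for leukocytes, measured 188, 203 and 184 CPM in WT against 119, 112 and 103 CPM in KO (-0.78 ± 0.07, edgeR adjusted p = 9.71e-05). Tnf, the cytokine TNF, measured 110, 118 and 144 CPM in WT against 74.2, 80.4 and 76.9 CPM in KO (-0.68 ± 0.08, edgeR adjusted p = 0.000595). Nlrp3, the sensor of the inflammasome, measured 117, 122 and 131 CPM in WT against 78.5, 85.1 and 77.3 CPM in KO (-0.62 ± 0.07, edgeR adjusted p = 0.000477). In all 3 genes every KO value was below every WT value. Ptgs2, the inducible cyclooxygenase, also fell (-0.85 ± 0.12, edgeR adjusted p = 0.00143), as did the chemokine Cx3cl1 (-0.98 ± 0.16, edgeR adjusted p = 0.00276), the maturation marker Cd83 (-1.06 ± 0.16, edgeR adjusted p = 0.00241) and the feedback inhibitor Socs3 (-0.89 ± 0.14, edgeR adjusted p = 0.00306). The receptor Cd40 had -0.42 ± 0.09, a call that was lost without WT2, KO1 or KO2 (edgeR adjusted p from 0.0504 to 0.0556). Il1b, the cytokine IL-1beta, measured only 5.76, 4.14 and 3.62 CPM in WT against 2.35, 1.67 and 1.38 CPM in KO, and its call was lost without WT1, WT2, KO1, KO2 or KO3 (edgeR adjusted p from 0.062 to 0.158).

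Secreted mediators moved in both directions, with 29.4% of the cytokines tested called. Of the 17 cytokines tested, 3 fell (1 without WT2, KO1 or KO2) and 2 rose (1 without WT1, WT2, KO1, KO2 or KO3), among the latter Tnfsf12, which encodes TWEAK (0.43 ± 0.07, edgeR adjusted p = 0.00211). Spp1, encoding osteopontin, had -0.32 ± 0.08, a call lost without WT2, WT3, KO1 or KO2 (edgeR adjusted p from 0.0708 to 0.124). Of the 23 chemokine ligands, 1 fell and 1 rose (Cx3cl1 and Ccl7), 8.7% against 9.78% of all genes. The number lower became 2 without WT3 and the number higher 4 without WT3 and 0 without WT1, WT2, KO2 or KO3 (2 with DESeq2). Of the 14 chemokine receptors 1 rose (2 without WT3 or KO3, and 2 with DESeq2), 7.14% of those tested. This was Ccr1, a receptor for CC chemokines, at 31.3, 36.7 and 39.6 CPM in WT against 78.6, 73.5 and 71.9 CPM in KO (1.06 ± 0.12, edgeR adjusted p = 0.000402). The chemokine Ccl2 measured 561, 617 and 851 CPM in WT against 776, 855 and 901 CPM in KO, where the groups overlapped and the call was not reached (0.32 ± 0.12, edgeR adjusted p = 0.11). Ccl7 measured 191, 201 and 322 CPM in WT, highest in WT3, and 317, 361 and 397 CPM in KO, and its call was lost without WT1, WT2, KO2 or KO3 (edgeR adjusted p from 0.0789 to 0.128).

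ID proteins are small inhibitors of helix-loop-helix transcription factors, and they are well known targets of BMP receptors, which signal through SMAD1 and SMAD5. Id1 measured 14.7, 15.7 and 14.4 CPM in WT against 4.7, 3.85 and 4.15 CPM in KO, a log2 fold change of -1.83 ± 0.09 (edgeR adjusted p = 7.4e-07). Id3 measured 10.8, 12.6 and 10.4 CPM in WT against 3.09, 2.33 and 2.32 CPM in KO (-2.14 ± 0.16, edgeR adjusted p = 2.66e-05). In both genes the highest KO value lay far below the lowest WT value. Smad6, the inhibitory SMAD of the BMP branch, measured 11.4, 14.9 and 10.8 CPM in WT against 4.37, 4.22 and 3.84 CPM in KO (-1.58 ± 0.19, edgeR adjusted p = 0.000522). Id2 fell less (-0.45 ± 0.06, edgeR adjusted p = 0.00168), as did Skil, a repressor of SMAD signalling (-0.59 ± 0.10, edgeR adjusted p = 0.0034). The receptor Bmpr1a had -1.03 ± 0.24, with 7.86, 5.85 and 12.6 CPM in WT against 3.67, 4.43 and 4.65 CPM in KO, and its call was lost without KO1, KO2 or KO3 (edgeR adjusted p from 0.0507 to 0.067).

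In all, 34 of 45 genes of the list were tested, 7 fell and 0 rose (1 at an unadjusted p under 0.05, 0 with DESeq2), the median being -0.07 (-0.14 without WT3, -0.12 without KO1 and -0.04 without WT1). Without 1 library 5 to 9 genes fell, the highest number without WT3. The genotype difference of Id1 was 0.04 ± 0.09 in M2, and the difference between M0 and M2 was -1.86 ± 0.13 (edgeR adjusted p = 4.19e-05). For Id3 it was -1.62 ± 0.26 (edgeR adjusted p = 0.00741) and for Id2 -0.52 ± 0.09 (edgeR adjusted p = 0.0107), while that of Smad6 (-1.39 ± 0.35) missed the threshold without the mouse as a block (edgeR adjusted p = 0.0521) and passed it with the block (edgeR adjusted p = 0.0318). The stromal markers, whose sums are given above, were lowest in KO3, and their part in the Id1 values was not tested.

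**Figure D3:**
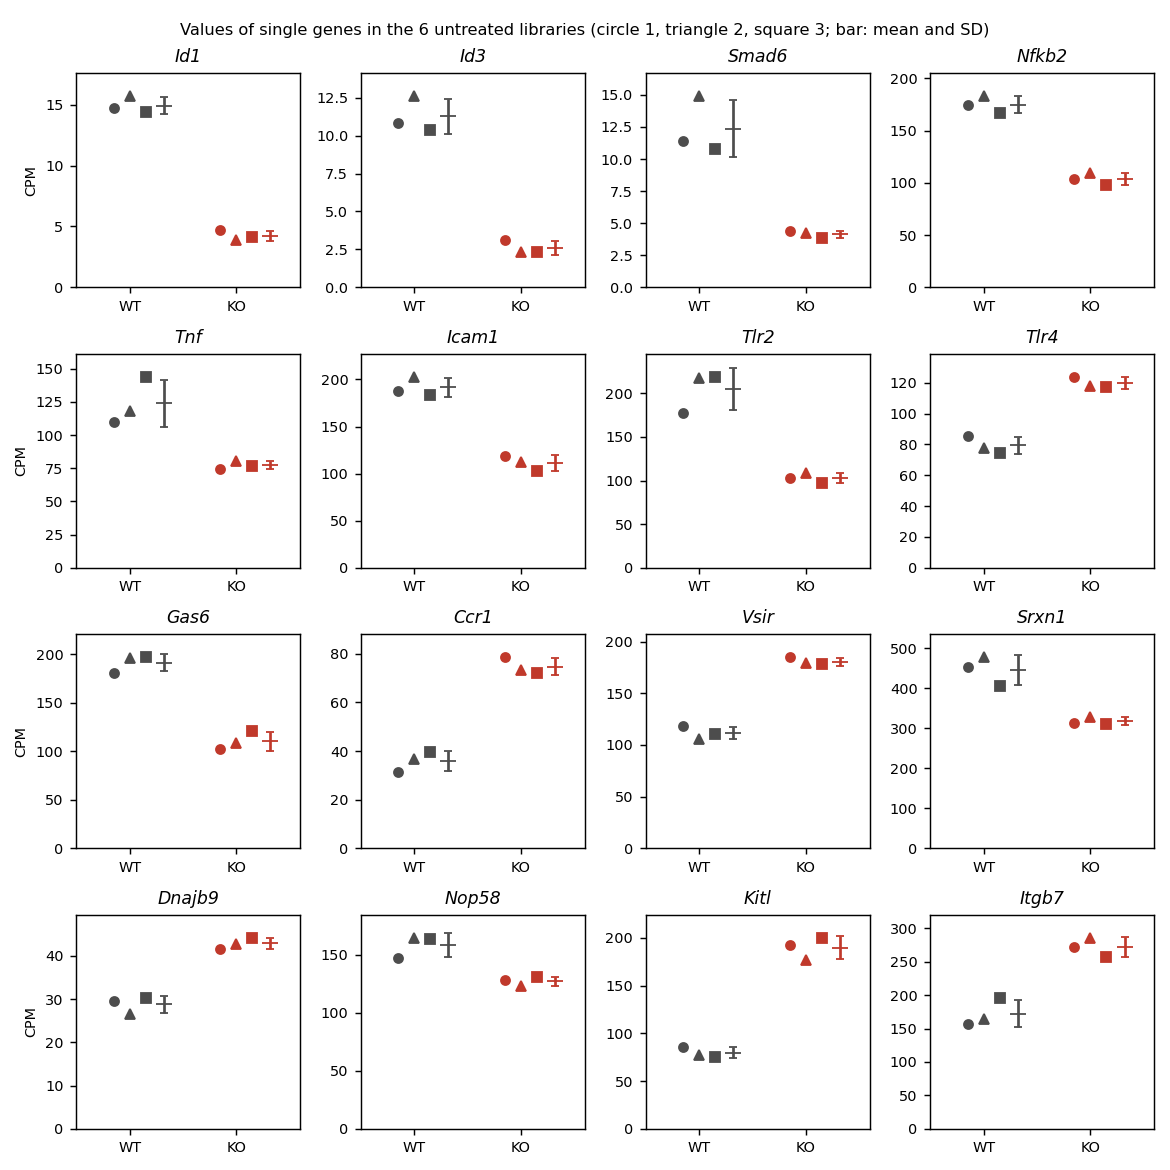
CPM of 16 genes in the 6 untreated libraries, WT in grey and KO in red, each point 1 library (circle 1, triangle 2, square 3), with the mean and SD to the right of each group. The vertical axes start at 0, and in all 16 panels the KO and WT points do not overlap, from Id1 at 3.85 to 4.7 CPM in KO against 14.4 to 15.7 CPM in WT to Kitl, which is higher in KO. All 16 genes were chosen from those called in M0, which makes such a separation likely.

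Toll-like receptors, which sense microbial products, moved in both directions. Of the 24 receptors and adaptors tested, 5 rose and 1 fell (2 without WT1). Tlr2, the receptor for bacterial lipoproteins, measured 177, 218 and 219 CPM in WT against 103, 109 and 97.6 CPM in KO (-0.99 ± 0.10, edgeR adjusted p = 0.000164). Tlr4, the receptor for endotoxin, measured 85.7, 77.7 and 74.7 CPM in WT against 124, 118 and 117 CPM in KO (0.59 ± 0.06, edgeR adjusted p = 0.000284). Tlr2 was lower and Tlr4 was higher in each KO library than in each WT library. Tlr7, a sensor of RNA in endosomes, rose (0.39 ± 0.06, edgeR adjusted p = 0.0016), and the calls of Tlr6, Tlr8 and the adaptor Ticam2 were lost in 3 to 5 of the 6 fits without 1 library, so that the count of 5 became 2 without WT2, KO2 or KO3. Both Tlr2 (-1.07 ± 0.17, edgeR adjusted p = 0.00627) and Tlr4 (0.74 ± 0.09, edgeR adjusted p = 0.00257) differed between M0 and M2.

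Growth factors and their receptors also moved both ways. Of 22 genes tested, 6 fell and 3 rose. Csf1, which encodes M-CSF, measured 8.99, 9.69 and 10.7 CPM in WT against 5.91, 4.08 and 4.23 CPM in KO (-1.06 ± 0.14, edgeR adjusted p = 0.000765), while its receptor Csf1r had 0.06 ± 0.04 (edgeR adjusted p = 0.394). Kitl, the ligand of KIT, measured 85.9, 77.4 and 75.3 CPM in WT against 192, 177 and 200.2 CPM in KO (1.25 ± 0.10, edgeR adjusted p = 4.05e-05). KO and WT values were apart in both genes. Gas6, a bridge between dying cells and the receptors AXL and MERTK, fell from 181, 196 and 197 to 102, 108 and 121 CPM (-0.80 ± 0.07, edgeR adjusted p = 5.69e-05). The receptor Axl had 0.35 ± 0.10, a call lost without WT2, WT3, KO1 or KO2 (edgeR adjusted p from 0.0953 to 0.168). The receptor Fgfr1, on none of the lists, rose from 35, 29.7 and 28.4 to 57.9, 55.4 and 55.1 CPM (0.85 ± 0.09, edgeR adjusted p = 0.000319). The receptor subunit Ifngr1 fell (-0.29 ± 0.06, edgeR adjusted p = 0.0122), its call being lost without WT2 (edgeR adjusted p = 0.062). The 6 genes that fell became 3 without KO1 or KO3 and 2 without WT2 or KO2, and the 3 that rose became 1 without WT2 or KO2.

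NRF2 drives the genes of glutathione synthesis and of the thioredoxin system. Of 26 genes tested, 7 fell and 2 rose, the median being -0.04 (-0.08 without WT1 and -0.01 without WT3). Gclc, the catalytic subunit of the enzyme that limits glutathione synthesis, measured 127, 141 and 108 CPM in WT against 88.9, 89.6 and 83.6 CPM in KO (-0.52 ± 0.08, edgeR adjusted p = 0.00291). Srxn1, encoding sulfiredoxin, measured 453, 478 and 405 CPM in WT against 313, 329 and 312 CPM in KO (-0.49 ± 0.08, edgeR adjusted p = 0.00265). In both genes the KO values lay below the WT values. The autophagy receptor Sqstm1 also fell (-0.39 ± 0.07, edgeR adjusted p = 0.00727). The modifier subunit Gclm had -0.34 ± 0.07 and the thioredoxin reductase Txnrd1 -0.39 ± 0.09, with calls lost without WT2, KO1 or KO3 (edgeR adjusted p from 0.0506 to 0.0636) for Gclm and without WT2, KO1 or KO3 (edgeR adjusted p from 0.0515 to 0.0838) for Txnrd1. The glutathione transferase Gsta3 went the other way at 0.55 ± 0.13, its call being lost without WT1, KO2 or KO3 (edgeR adjusted p from 0.0507 to 0.088). Nfe2l2, which encodes NRF2, had 0.06 ± 0.05, its inhibitor Keap1 -0.03 ± 0.05 and the haem oxygenase Hmox1 -0.02 ± 0.12, none of which passed the test. The 7 genes that fell became 3 without WT2, KO1 or KO3, and the 2 that rose became 1 without WT2 and 0 without WT1, KO2 or KO3.

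The core of the antioxidant response element, searched as TGACNNNGC on both strands, was present in 12.4% of all windows, for 17.0% of the tested genes with a window, for 9 of 21 genes of the list and for 6 of the 8 called. Shown are genes with the motif that fell (Srxn1, chr2:152105542-152105570, and Gclm, chr3:122245413-122245441) and 1 that was higher (Gsta3, chr1:21240454-21240482), all on the plus strand and 29 bases long. In the first pair the capitals are the reverse complement of the motif.
Srxn1: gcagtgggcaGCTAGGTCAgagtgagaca
Gclm: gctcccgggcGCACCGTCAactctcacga
Gsta3: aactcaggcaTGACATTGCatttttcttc

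The unfolded protein response raises chaperones and degradation factors of the ER through the sensors IRE1, PERK and ATF6. All 27 genes of the list were tested, 11 rose and 0 fell (0 also at an unadjusted p under 0.05 and with DESeq2), 26 had a value above 0 and the median was 0.19. Dnajb9, a cochaperone, measured 29.6, 26.6 and 30.3 CPM in WT against 41.6, 42.8 and 44.2 CPM in KO (0.58 ± 0.07, edgeR adjusted p = 0.000587). Hyou1, a large ER chaperone, measured 254, 239 and 229 CPM in WT against 296, 304 and 299 CPM in KO (0.32 ± 0.04, edgeR adjusted p = 0.0013). Syvn1, a ubiquitin ligase of ER-associated degradation, measured 66.5, 61.8 and 69.8 CPM in WT against 82, 80.8 and 78.1 CPM in KO (0.28 ± 0.05, edgeR adjusted p = 0.00488). In these 3 genes all KO values were above all WT values. Hspa5, which encodes the chaperone BiP, had 0.30 ± 0.07 and the transcription factor Xbp1 had 0.27 ± 0.07, with calls lost without WT2, KO2 or KO3 (edgeR adjusted p from 0.0508 to 0.0656) for Hspa5 and without WT1, WT2, KO1, KO2 or KO3 (edgeR adjusted p from 0.0534 to 0.118) for Xbp1. Atf6 and Ern1, which encodes IRE1, did not pass the test (0.25 ± 0.11 and -0.18 ± 0.09).

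The number of ER genes that rose depended on the libraries, being 13 without WT3, 7 without WT1 or KO1, 4 without KO3 and 3 without WT2 or KO2. Of the 11 genes, 2 passed the test of the difference between M0 and M2, Dnajb9 (0.49 ± 0.10, edgeR adjusted p = 0.0209) and Hyou1 (0.28 ± 0.06, edgeR adjusted p = 0.0286). Over all genes called in M0, 281 of 1256 passed this test. With the mouse as a block Hspa5 passed it as well (edgeR adjusted p = 0.0427, against 0.0742 without). The ER stress response element, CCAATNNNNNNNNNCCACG on both strands, is rare, being present in 0.119% of all windows and for 0.166% of the tested genes with one. It was found for 8 of 22 genes of the list, 2 of them among the 9 called with a window. These are Hspa5 (chr2:34772020-34772048) and Syvn1 (chr19:6046527-6046555), both on the plus strand.
Hspa5: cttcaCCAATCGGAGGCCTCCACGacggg
Syvn1: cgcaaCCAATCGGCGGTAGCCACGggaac

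Ribosomes are assembled in the nucleolus by a large set of factors. Of 30 biogenesis genes, 12 fell and 0 rose (0 also at an unadjusted p under 0.05 and with DESeq2), and 27 had a value below 0, with a median of -0.16. Nop58, a core protein of box C/D particles, measured 147, 165 and 164 CPM in WT against 128, 123 and 131 CPM in KO (-0.32 ± 0.06, edgeR adjusted p = 0.00497). Dkc1, the pseudouridine synthase dyskerin, measured 81.1, 86.9 and 82.8 CPM in WT against 69.7, 67.8 and 65.3 CPM in KO (-0.31 ± 0.06, edgeR adjusted p = 0.00663). The groups did not overlap in either gene, and Dkc1 was not called with limma on log2(TPM + 1). The abundant nucleolar proteins Npm1 (0.02 ± 0.04), Ncl (-0.10 ± 0.06) and Fbl (-0.01 ± 0.06) did not pass the test. The count of 12 became 7 without KO1, 6 without KO2, 4 without KO3 and 2 without WT2. The E-box CACGTG, which reads alike on both strands, was present in 7.15% of all windows, for 12.0% of the tested genes with one, for 6 of 25 genes of the list and for 2 of the 11 called. These are Nop2 and Wdr43, with calls lost without WT1, WT2, KO1, KO2 or KO3 (edgeR adjusted p from 0.102 to 0.154) for Nop2 and without WT2, KO1, KO2 or KO3 (edgeR adjusted p from 0.0599 to 0.095) for Wdr43.

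Of the 80 cytosolic ribosomal proteins, which make up the ribosome itself, 0 were called with edgeR and 0 with DESeq2, at a median of -0.04 (1 higher and 6 lower at an unadjusted p under 0.05). Called lower were 2 without WT1 and 2 with limma at either pseudocount, and the median became -0.08 without WT1, -0.02 without KO1 and 0.01 without WT3. Of the 32 constitutive proteasome subunits 0 were called with edgeR and 0 with DESeq2, at a median of 0.03 that became -0.01 without WT1 and 0.07 without WT3 (2 higher and 0 lower at an unadjusted p under 0.05). Of the 22 heat shock genes 1 rose, the constitutive chaperone Hspa8 (0.27 ± 0.07), and its call was lost without WT2, WT3, KO1 or KO2 (edgeR adjusted p from 0.0502 to 0.109). The share called was 4.55%, below the 9.78% of all genes. Of the 25 genes of amino acid stress, 3 fell (1 without WT2 or KO2 and 0 without KO3) and 1 rose (0 without WT1, WT2, KO1, KO2 or KO3), among the former the amino acid transporter Slc7a5 (-0.54 ± 0.11, edgeR adjusted p = 0.00951), whose call was lost without WT2 or KO3 (edgeR adjusted p from 0.0504 to 0.0545).

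**Figure D4:**
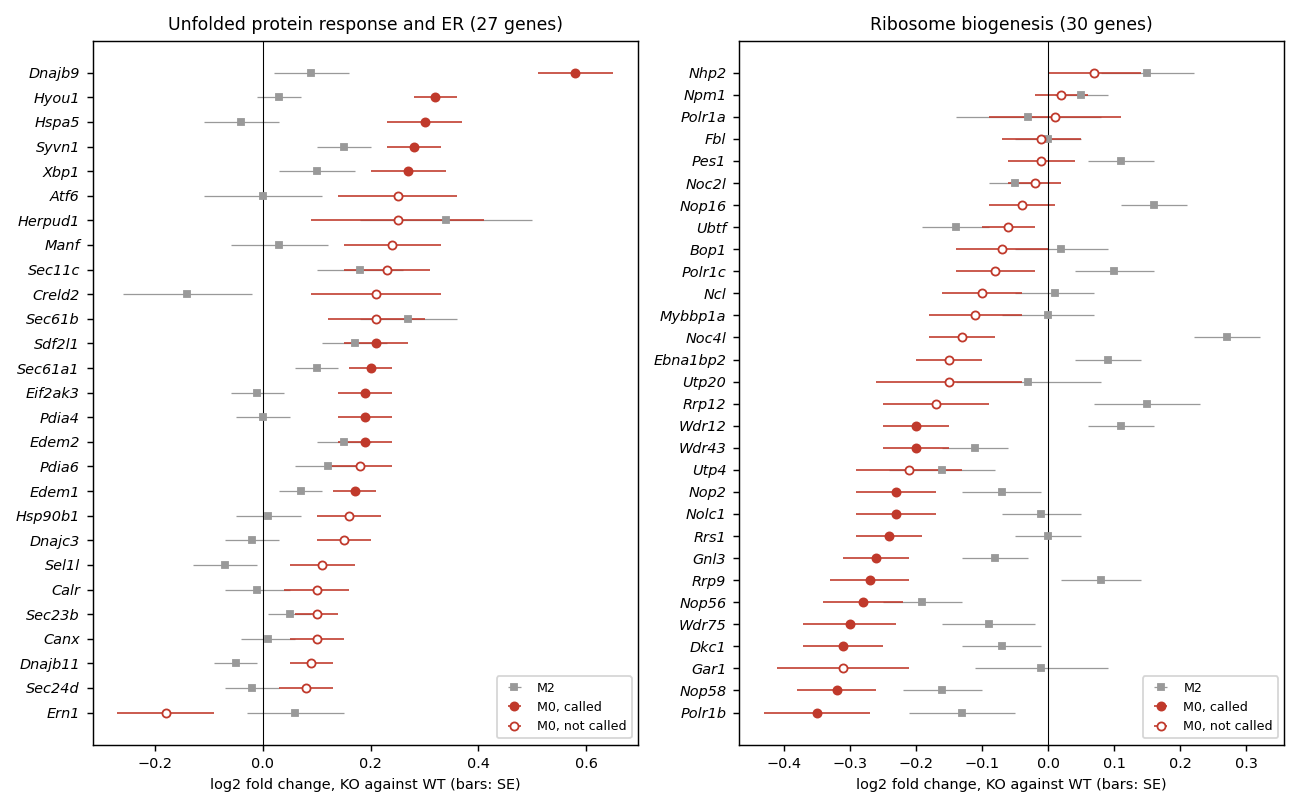
Log2 fold change of KO against WT (horizontal axes, bars are SE) for 27 genes of the unfolded protein response and ER (left) and 30 genes of ribosome biogenesis (right), in M0 (red, filled where called) and in M2 (grey squares). On the left 11 genes are called and all of them lie to the right of 0, with Dnajb9 farthest, and on the right 12 genes are called and all of them lie to the left of 0.

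Interferon-stimulated genes encode antiviral proteins, and a weak tonic interferon signal sustains their low level at rest. Of 46 tested, 9 rose and 1 fell (0 without WT2, WT3, KO2 or KO3), 41 had a value above 0 and the median was 0.31 (0.17 without KO1). The list mean was not alike in the KO libraries, as it lay 0.52, 0.11 and 0.15 log2 units above the WT mean in KO1, KO2 and KO3. Samhd1, a dNTP hydrolase that restricts viruses, measured 208, 211 and 204 CPM in WT against 285, 273 and 264 CPM in KO (0.40 ± 0.05, edgeR adjusted p = 0.000402). Trim30a measured 58.4, 56.2 and 60.8 CPM in WT against 85.6, 76.3 and 81.9 CPM in KO (0.47 ± 0.06, edgeR adjusted p = 0.000828). Ddx58, which encodes the RNA sensor RIG-I, measured 29.4, 29.4 and 32.8 CPM in WT against 46.1, 43.3 and 42.5 CPM in KO (0.53 ± 0.09, edgeR adjusted p = 0.00351). In these 3 genes each KO library was above each WT library, and KO1 was the highest. Ifit1 measured 8.96, 8.15 and 9.23 CPM in WT against 17.3, 7.64 and 9.07 CPM in KO, so that KO1 alone was high, and it was not called (0.36 ± 0.27, edgeR adjusted p = 0.453).

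Isg15, a ubiquitin-like modifier, also did not pass the test (0.62 ± 0.18, edgeR adjusted p = 0.0508), nor did Irf7, the amplifying transcription factor (0.49 ± 0.18, edgeR adjusted p = 0.116). The number of interferon-stimulated genes that rose was 7 without WT3, 6 without WT1 or KO2, 5 without KO3, 4 without KO1 and 3 without WT2. In M2 the median was -0.16, and 6 genes called in M0 passed the test of the difference (7 with the mouse as a block). Among the 6 were Samhd1 (0.51 ± 0.06, edgeR adjusted p = 0.00315) and Trim30a (0.57 ± 0.09, edgeR adjusted p = 0.00646). Without the block, 281 of the 1256 genes called in M0 passed. The interferon-stimulated response element, searched as GAAANNGAAA on both strands, was present in 3.44% of all windows, for 3.96% of the tested genes with one, for 23 of 35 genes of the list and for 6 of the 8 called. It is shown for Oas3 (chr5:120777715-120777744), Ddx58 (chr4:40239804-40239833) and Trim30a (chr7:104465210-104465239), all on the minus strand, where the last 2 hold it as the reverse complement.
Oas3: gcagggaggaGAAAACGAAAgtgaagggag
Ddx58: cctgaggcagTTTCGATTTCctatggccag
Trim30a: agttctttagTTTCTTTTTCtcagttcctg

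**Figure D5:**
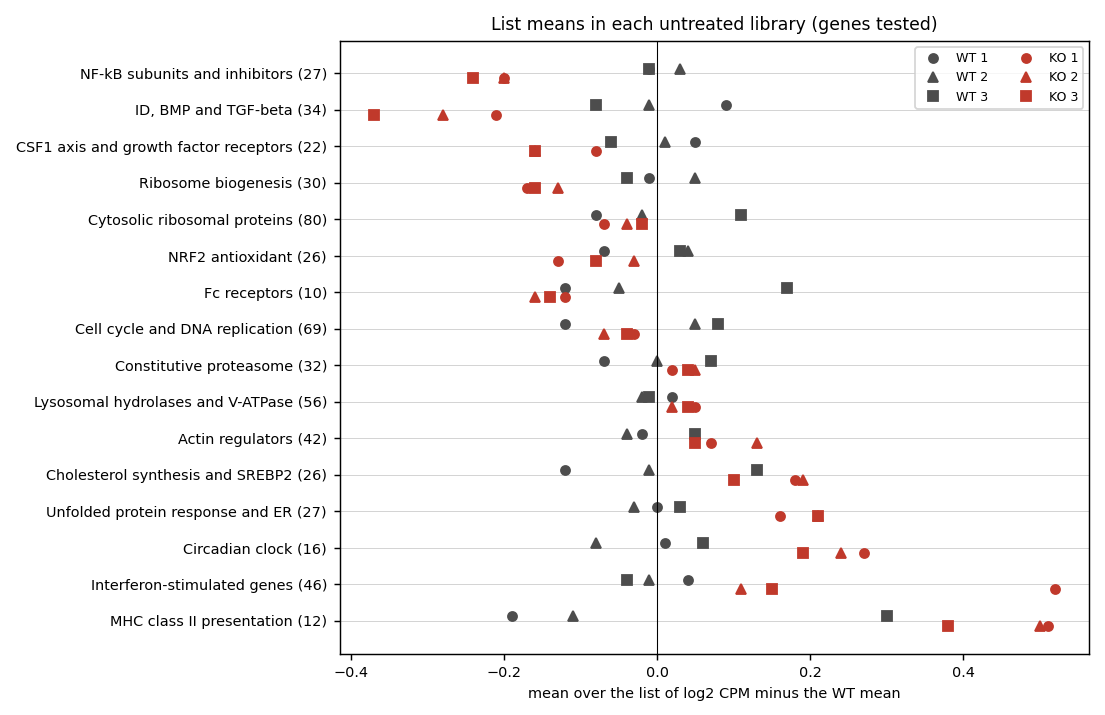
Mean over each list of log2 CPM minus the WT mean (horizontal axis) in each untreated library, WT in grey and KO in red (circle 1, triangle 2, square 3), for 16 lists with the number of genes tested in brackets. KO1 lies apart from KO2 and KO3 for interferon-stimulated genes (0.52 against 0.11 and 0.15), and WT3 lies apart from WT1 and WT2 for MHC class II presentation (0.30 against -0.19 and -0.11).

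Signal transducers of interferon and cytokine receptors moved both ways. Of 23 genes, 4 rose and 3 fell, among the latter the kinase Jak2 (51.9, 47.2 and 39.8 CPM in WT against 33.2, 33.9 and 31.4 CPM in KO, -0.50 ± 0.08, edgeR adjusted p = 0.00354). The transducer Stat2 (0.24 ± 0.05) was higher, but its call was lost without KO1 or KO3 (edgeR adjusted p from 0.0503 to 0.0541). Leaving out libraries turned the 4 that rose into 2 without WT2 or KO1 and 0 without KO3.

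MHC molecules present peptides to T cells. Of 12 class II genes tested, 2 were called higher, H2-Aa and H2-Eb1, at low levels in all libraries. H2-Eb1 measured 1.94, 3.12 and 5.65 CPM in WT, where WT3 was highest, and 8.19, 7.88 and 7.8 CPM in KO (1.17 ± 0.27, edgeR adjusted p = 0.0193), and its call was lost without WT2, KO1, KO2 or KO3 (edgeR adjusted p from 0.0528 to 0.0866). H2-Aa had 1.04 ± 0.26, a call lost without WT1, WT2, KO1, KO2 or KO3 (edgeR adjusted p from 0.058 to 0.109). H2-Ab1 had 0.92 ± 0.28 and missed the threshold (edgeR adjusted p = 0.0563). The number called higher was 4 without WT3, 1 without WT1 and 0 without WT2, KO1, KO2 or KO3. The dendritic cell markers summed to 15.3, 11.1 and 10.7 CPM in WT and to 19.7, 12.9 and 16.5 CPM in KO, and their part in the class II values was not tested. Of 24 class I genes, 3 fell and 1 rose (0 without WT2, WT3, KO1, KO2 or KO3). The 3 were genes of the Q region, of which H2-Q4 measured 62.1, 68.9 and 69.8 CPM in WT against 43.2, 42.1 and 39.1 CPM in KO (-0.69 ± 0.08, edgeR adjusted p = 0.000441) and H2-Q6 4.75, 4.6 and 3.62 against 1.51, 1.06 and 0.83 CPM (-1.95 ± 0.30, edgeR adjusted p = 0.00211), while the classical H2-K1 and H2-D1 had -0.02 ± 0.08 and 0.02 ± 0.06. The Q genes are near-identical copies, and the division of shared reads among them is uncertain.

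Co-stimulatory and checkpoint molecules were split. Of 20 tested, 4 rose (2 without WT2 or KO2) and 2 fell (4 without WT3 and 1 without WT2, KO1 or KO2). Vsir, which encodes the checkpoint protein VISTA, measured 118, 106 and 110.4 CPM in WT against 185, 179 and 178 CPM in KO (0.70 ± 0.05, edgeR adjusted p = 3.52e-05), and Cd200r1, an inhibitory receptor, 29.9, 27.4 and 31.5 against 43.1, 38.9 and 41.7 CPM (0.48 ± 0.06, edgeR adjusted p = 0.00103). The KO values of both lay above those of WT. In M2 the values were 0.00 ± 0.05 and -0.06 ± 0.06, with differences of 0.70 ± 0.08 (edgeR adjusted p = 0.00185) and 0.54 ± 0.09 (edgeR adjusted p = 0.00755). Fc receptors bind antibodies, and of 10 tested 3 fell (1 without WT2, KO1, KO2 or KO3) and 0 rose (0 also at an unadjusted p under 0.05 and with DESeq2). The neonatal receptor Fcgrt fell in all KO libraries (37.1, 37.9 and 40.3 to 28.7, 26.8 and 25.7 CPM, -0.51 ± 0.07, edgeR adjusted p = 0.00157). The inhibitory Fcgr2b and the activating Fcgr4 had calls lost without WT2, WT3, KO1, KO2 or KO3 (edgeR adjusted p from 0.0718 to 0.128) and without WT1, WT2, KO1, KO2 or KO3 (edgeR adjusted p from 0.078 to 0.124) in this order. Of 16 complement genes (25.0% called), 2 rose (1 without WT2, KO2 or KO3) and 2 fell (4 without WT3 and 1 without WT1, WT2, KO1, KO2 or KO3), among the latter C1qa (63.3, 64.7 and 67.3 to 46.3, 49.7 and 54.2 CPM, -0.38 ± 0.07, edgeR adjusted p = 0.00685).

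Scavenger receptors take up modified lipoproteins and microbes. Of 16 tested, 2 rose and 2 fell (1 without KO1, KO2 or KO3 and 0 without WT2). Marco measured 28.4, 36.1 and 34.9 CPM in WT against 60.9, 136 and 116 CPM in KO (1.66 ± 0.30, edgeR adjusted p = 0.00585), all KO values being above those of WT but spread over a factor of more than 2. Msr1 measured 407, 471 and 468 CPM in WT against 666, 697 and 678 CPM in KO (0.60 ± 0.07, edgeR adjusted p = 0.000402). Cd5l, a secreted member, had -0.49 ± 0.11, a call lost without WT2 or KO3 (edgeR adjusted p from 0.0746 to 0.0828). Mrc1, the mannose receptor, fell from 214, 285 and 287 to 131, 148 and 155 CPM (-0.86 ± 0.10, edgeR adjusted p = 0.000522) and was the lectin called lower among 19 tested (2 without WT1), with 2 called higher (1 without KO1, KO2 or KO3 and 0 without WT2). The MS4A membrane proteins had 3 of 6 tested genes called higher (Ms4a6b, Ms4a6c and Ms4a6d at 0.42 ± 0.11, 0.28 ± 0.07 and 0.20 ± 0.05), which resemble each other in sequence, and the count became 1 without WT1 or KO1 and 0 without WT2 or KO3.

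Integrins and the actin machinery serve adhesion and phagocytosis. Of 26 adhesion genes, 4 rose and 4 fell (2 without WT2, KO1, KO2 or KO3). Itgb2 and Itgam, both chains of complement receptor CR3, rose from 1304, 1262 and 1205 to 1629, 1692 and 1604 CPM (0.38 ± 0.05, edgeR adjusted p = 0.00057) and from 947, 935 and 900.2 to 1193, 1312 and 1292 CPM (0.45 ± 0.08, edgeR adjusted p = 0.00396). Itgb7 rose from 157, 164 and 196 to 272, 286 and 257 CPM (0.66 ± 0.10, edgeR adjusted p = 0.00211). Itga5, the fibronectin receptor chain, fell from 465, 472 and 398 to 345, 348 and 332 CPM (-0.38 ± 0.07, edgeR adjusted p = 0.00616), and Itgb3 fell at a low level (1.71, 1.41 and 1.4 to 0.588, 0.716 and 0.83 CPM, -1.07 ± 0.17, edgeR adjusted p = 0.00311), though not with limma on log2(TPM + 1). None of these groups overlapped. Of 42 actin regulators, 9 rose and 1 fell. Rhob, a small GTPase of endosomes, rose from 54.3, 55.2 and 64.5 to 104, 114 and 94.4 CPM (0.85 ± 0.08, edgeR adjusted p = 0.000107) and the exchange factor Vav3 from 39.8, 35.7 and 46.1 to 60.4, 62.4 and 61 CPM (0.60 ± 0.08, edgeR adjusted p = 0.00111).

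The membrane-actin linker Ezr was the gene of this list that fell, from 149, 182 and 166 to 112, 120.4 and 105 CPM (-0.56 ± 0.08, edgeR adjusted p = 0.0019), while Rhoa had 0.06 ± 0.06 and Rhoc 0.07 ± 0.09. The number of actin regulators that rose became 5 without KO1, 3 without KO2 or KO3 and 2 without WT2. Proteases of the matrix moved both ways, with 4 of 23 rising (2 without WT2 or KO2) and 3 falling (1 without WT2, KO1, KO2 or KO3). Mmp12, the macrophage elastase, measured 496, 441 and 479 CPM in WT against 670.1, 682 and 686 CPM in KO (0.53 ± 0.05, edgeR adjusted p = 0.000151), and Hpse, a heparanase, 43.5, 46.3 and 48.8 against 32.2, 31.4 and 31.8 CPM (-0.54 ± 0.06, edgeR adjusted p = 0.000522). Mmp8, the collagenase of neutrophil granules, rose from 17.1, 24.6 and 24.8 to 45.7, 34.8 and 44.4 CPM (0.91 ± 0.15, edgeR adjusted p = 0.00308), opposite to Ltf, Ngp and S100a9. Mmp9 measured 494, 385 and 368 CPM in WT against 425, 429 and 343 CPM in KO and did not pass the test.

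Lysosomes break down what macrophages take up, and autophagy brings parts of the cell to them. Of 56 lysosomal genes, 8 rose and 2 fell at a median of 0.04, and of 34 autophagy genes 6 rose and 3 fell. These are 17.9% and 26.5% called, against 9.78% of all genes and 17.9% of the genes on all lists. The 8 lysosomal genes that rose became 5 without KO1, 3 without KO2 and 1 without WT2 or KO3, and the 2 that fell became 1 without WT1 and 0 without WT2, KO1, KO2 or KO3. The 6 autophagy genes that rose became 3 without KO3 and 2 without WT2, KO1 or KO2, while 2 to 3 fell in these fits, so that the increases did not outnumber the decreases without WT2, KO1, KO2 or KO3. The proton pump subunit Atp6v1b2 measured 670.4, 641 and 622 CPM in WT against 792, 802 and 799.8 CPM in KO (0.31 ± 0.05, edgeR adjusted p = 0.00368). Uvrag, a component of the lipid kinase complex of autophagosomes, rose from 52, 46.5 and 43.7 to 65.4, 66.9 and 63.9 CPM (0.46 ± 0.06, edgeR adjusted p = 0.0014), and Atg13, of the initiating complex, rose as well (0.28 ± 0.05, edgeR adjusted p = 0.0033), a call not made with limma on log2(TPM + 1). The receptors Optn (-0.61 ± 0.09, edgeR adjusted p = 0.00254) and Sqstm1 fell. Of 42 Rab GTPases 2 rose, Rab4a (1.44 ± 0.18, edgeR adjusted p = 0.000707), whose gene overlaps another one, and Rab8b (0.29 ± 0.06), whose call was lost without WT2, KO2 or KO3 (edgeR adjusted p from 0.0522 to 0.0641). These are 4.76% of the family, below the 9.78% of all genes, and the number higher became 4 without WT1 or WT3 and 1 without WT2, KO2 or KO3, and 6 with DESeq2.

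Of 26 genes of cholesterol synthesis, 2 rose (5 with DESeq2), 7.69% against 9.78% of all genes, and 23 had a value above 0, at a median of 0.15 (0.09 without WT1). Mvd measured 10.7, 11.7 and 13.9 CPM in WT against 18.8, 17.9 and 16.6 CPM in KO (0.56 ± 0.10, edgeR adjusted p = 0.00433), and all KO values lay above those of WT. The number called higher was 6 without WT3, 2 without WT1, KO1 or KO3 and 1 without WT2 or KO2. Soat1, which esterifies cholesterol, rose from 180.2, 156 and 147 to 224, 216 and 222 CPM (0.45 ± 0.07, edgeR adjusted p = 0.00168). Apoe measured 687, 537 and 167 CPM in WT against 209, 90.1 and 91.2 CPM in KO, where WT3 overlapped with KO1, and was not called (-1.84 ± 0.63, edgeR adjusted p = 0.0883). The phosphocholine enzyme Pcyt1a rose (0.44 ± 0.05, edgeR adjusted p = 0.00057) and the acyl-CoA synthetase Acsl1 fell (-0.44 ± 0.08, edgeR adjusted p = 0.00423). Of 24 hypoxia genes outside glycolysis 3 rose, 12.5% against 9.78% of all genes and 17.9% of the genes on all lists, among them the mitophagy receptor Bnip3 (29.7, 31.9 and 35.9 to 53.6, 46.6 and 47.9 CPM, 0.60 ± 0.08, edgeR adjusted p = 0.000681) and the collagen hydroxylase P4ha1 (0.43 ± 0.06, edgeR adjusted p = 0.00143), while Hif1a had -0.14 ± 0.05 and was not called.

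RNA-binding factors were examined because IGF2BP2 acts on RNA. Zfp36, encoding the decay factor tristetraprolin, fell from 141, 139 and 146 to 107, 101 and 108 CPM (-0.44 ± 0.07, edgeR adjusted p = 0.00393), and its relative Zfp36l1 rose from 20.9, 19 and 22.7 to 31.3, 29 and 29.9 CPM (0.53 ± 0.09, edgeR adjusted p = 0.00462). The groups were apart in both, in opposite directions. Zc3h12a, an endonuclease that cuts cytokine transcripts, fell (-0.36 ± 0.06, edgeR adjusted p = 0.0031). Over the 38 genes of AU-rich element binding and mRNA decay, 3 rose (1 without WT2, KO1 or KO2) and 3 fell. Called were thus 15.8%, against 9.78% of all genes and 17.9% of the genes on all lists. Of 20 genes that write, erase or read N6-methyladenosine, 1 was called (5.0%, below the 9.78% of all genes). This was the demethylase Alkbh5 (0.21 ± 0.05), and its call was lost without WT2, KO1, KO2 or KO3 (edgeR adjusted p from 0.0562 to 0.0683). The methyltransferase subunits Mettl3 (23, 24 and 24.8 CPM in WT against 19.4, 20.7 and 21 CPM in KO, -0.23 ± 0.08, edgeR adjusted p = 0.103) and Mettl14 (-0.16 ± 0.07, edgeR adjusted p = 0.161) did not pass.

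Transcription factors of the macrophage lineage moved both ways, 3 of 25 rising and 2 falling (1 without WT2 and 0 without KO2 or KO3). Spi1, encoding PU.1, had -0.05 ± 0.06 and did not pass. Bhlhe41, which belongs to the clock genes too, rose from 20.0, 19.3 and 20.9 to 30.3, 29.7 and 32.5 CPM (0.62 ± 0.10, edgeR adjusted p = 0.00383), and Fli1 rose (0.34 ± 0.05, edgeR adjusted p = 0.00198). Cebpb had -0.48 ± 0.11, a call lost without KO2 or KO3 (edgeR adjusted p from 0.0554 to 0.083). Nr1d2, a repressor of the clock, rose from 19.7, 20.0 and 20.6 to 28.4, 25 and 27.2 CPM (0.42 ± 0.08, edgeR adjusted p = 0.00548). Of 69 genes of the cell cycle and DNA replication 3 rose (1 without WT2, KO1, KO2 or KO3) and 0 fell (2 without WT1, 1 with DESeq2, 2 at an unadjusted p under 0.05), which is below the share over all genes. The factor Uhrf1 was 1 of the 3 (184, 179 and 160.5 to 234, 213 and 221 CPM, 0.35 ± 0.07, edgeR adjusted p = 0.0122), while the proliferation marker Mki67 had -0.04 ± 0.15 and was not called.

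Among the genes with the strongest changes were several outside the lists. Ide, the insulin-degrading enzyme, fell from 207, 188 and 164 to 101, 96.2 and 97.1 CPM (-0.93 ± 0.08, edgeR adjusted p = 5.69e-05). Gdf3, a TGF-beta family ligand, fell from 28.8, 27 and 24.3 to 13.2, 10.7 and 11.1 CPM (-1.20 ± 0.11, edgeR adjusted p = 9.71e-05), and Nes, the intermediate filament nestin, from 179.9, 182 and 183 to 97.5, 108 and 111 CPM (-0.78 ± 0.07, edgeR adjusted p = 7.07e-05). For Ide, Gdf3 and Nes the M2 values were -1.07 ± 0.08, -1.19 ± 0.11 and -0.59 ± 0.07, and the test of the difference did not pass, without or with the mouse as a block. Tob2 fell less (-0.53 ± 0.05, edgeR adjusted p = 7.07e-05). Among those that rose, Wdfy1 measured 18, 18.4 and 15.7 CPM in WT against 38.5, 39.3 and 56.4 CPM in KO (1.36 ± 0.18, edgeR adjusted p = 0.00103), the protease inhibitor Spint1 2.1, 2.14 and 2.45 against 6.24, 5.49 and 4.9 CPM (1.31 ± 0.13, edgeR adjusted p = 0.000177), and Tifab, a regulator of TRAF6 signalling, 23.6, 24.9 and 30.8 against 48.4, 48.7 and 46.3 CPM (0.86 ± 0.09, edgeR adjusted p = 0.000323). None of these groups overlapped. Myof, a membrane repair protein, rose (0.63 ± 0.06, edgeR adjusted p = 0.000225), as did the Ras regulator Rasa3 (0.61 ± 0.06, edgeR adjusted p = 0.000151) and the corepressor subunit Tbl1xr1 (0.56 ± 0.05, edgeR adjusted p = 9.71e-05).

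Whether the genotype difference was the same in both states was tested gene by gene. In M2, 2.68% of all genes were called, against 9.78% in M0, and 416 genes (3.24%) passed the test of the difference between the 2 states, 281 of them called in M0. With the mouse as a block, which the shared origin of the M0 and M2 libraries allows, 1002 genes passed. Without the untreated WT1 library 654 genes passed the test, 183 to 243 passed without WT2, KO1, KO2 or KO3 of the untreated libraries, and 197 and 207 without WT2 and KO3 of the M2 libraries. The M2 count of 344 genes became 192 without WT1 and 27 to 36 without WT2, KO2 or KO3 of the M2 libraries. Some of the strongest M0 differences did not pass the test of the difference, also with that block, with M0 and M2 values of -2.16 ± 0.14 and -2.01 ± 0.14 for Igf2bp3, -0.93 ± 0.08 and -1.07 ± 0.08 for Ide, and 1.36 ± 0.18 and 1.44 ± 0.18 for Wdfy1. Others did, with -0.80 ± 0.07 and 0.15 ± 0.07 for Gas6 (-0.95 ± 0.09, edgeR adjusted p = 0.00114), 1.06 ± 0.12 and 0.02 ± 0.12 for Ccr1 (1.04 ± 0.17, edgeR adjusted p = 0.00755) and -0.56 ± 0.08 and 0.26 ± 0.09 for Ezr (-0.82 ± 0.12, edgeR adjusted p = 0.0046). Kitl was higher in KO in both states and more so in M2 (1.25 ± 0.10 and 1.88 ± 0.10, with a difference of -0.63 ± 0.14, edgeR adjusted p = 0.0297).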

How the data were processed

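Poly(A)-selected RNA of BMMs from 3 WT and 3 KO mice, untreated or treated with IL-4, was sequenced by the authors as 12 libraries of single-end reads, with FastQC 0.11.2 among the tools of the submitters' processing notes, aligned to GRCm38/mm10. The tables deposited by the authors, 1 per library, hold the expected count of each gene, estimated from the aligned reads and not normalized. They also hold TPM, which the authors made by dividing by transcript length and scaling to a common total. The authors' RSEM-type tables divide reads that match several genes among them, so values of near-identical copies are uncertain, and whether counting used strand is not given in the sources used here. The deposited DESeq2 1.40.2 tables hold the authors' own fold changes and p-values and were not used.

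Expected counts were rounded to whole numbers. Genes passing filterByExpr by group (12846) were tested with edgeR 4.0.16 (R 4.3.3), TMM factors and a quasi-likelihood fit over all 12 libraries, 1 coefficient per group, with contrasts KO against WT in M0, in M2, and their difference. Benjamini-Hochberg adjusted p under 0.05 was a call. The M0 and M2 libraries of a mouse entered this fit as separate samples, without a term for the mouse. With 3 mice per genotype, p-values rest on the spread within groups, pooled over both states. The alternatives were DESeq2 1.42.0, RLE size factors, 2 other filters, limma 3.58.1 on log2(TPM + 1) and with a pseudocount of 0.1, the number as a replicate block, the 6 untreated libraries alone and leaving out each library. M0 and M2 libraries of 1 number came from the same mouse, and their deviations from the group means correlated at 0.103 to 0.364.

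The comparison, the 57 gene lists and the rule for named genes were chosen with earlier results of these data known. Genes named are Igf2bp1 to Igf2bp3, Lyz1 and Lyz2, in each direction the 12 with the largest change at a mean of at least 5 CPM and the 12 with the smallest p, and in each list up to 6 called members with the smallest p and the first 3 as written, from which the text takes a part. Motifs were searched in RefSeq promoter windows of GRCm38.p6. A few list members are not reported here by name.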

Additional observations from a re-analysis of the deposited data

Results flagged for a closer look

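For 65 of the genes named, the effect of the genotype differed between M0 and M2 by edgeR's test of the difference at an adjusted p under 0.05. The values are the log2 fold change in M0 minus that in M2. Below 0 were mostly genes that fell in M0. Among NF-kB regulators, the difference was -0.42 for Nfkb1, -0.79 for Nfkb2, -0.68 for Relb, -0.63 for Nfkbie, -0.49 for Nfkbib, -0.44 for Tnfaip2, -0.45 for Tnfaip3, -0.79 for Tnip1 and -1.05 for Traf1. Among inflammatory mediators and their feedback, the difference was -0.82 for Tnf, -0.92 for Icam1, -0.77 for Nlrp3, -0.84 for Ptgs2, -1.53 for Cx3cl1, -1.21 for Cd83, -0.89 for Cd40, -1.38 for Socs3 and -0.43 for Zc3h12a. Among transcriptional regulators, the difference was -1.86 for Id1, -0.52 for Id2, -1.62 for Id3, -0.82 for Cebpb and -0.33 for Tob2. Among growth factors, receptors and adhesion molecules, the difference was -0.95 for Gas6, -0.99 for Csf1, -0.63 for Kitl, -1.07 for Tlr2, -0.69 for Mrc1, -0.93 for Itgb3, -0.82 for Ezr and -0.74 for H2-Q4. Among enzymes, carriers and antioxidant genes, the difference was -0.48 for Gclc, -0.44 for Gclm, -0.46 for Sqstm1, -0.91 for Slc7a5, -0.45 for Acsl1 and -0.53 for Hpse. Of these, Kitl was higher in KO in both states.

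Above 0 were genes that rose in M0. Among sensors and antiviral genes, it was 0.74 for Tlr4, 0.66 for Tlr8, 0.51 for Samhd1, 0.57 for Trim30a, 0.61 for Oas3 and 0.38 for Stat2. Among surface receptors, it was 1.04 for Ccr1, 0.54 for Cd200r1, 0.70 for Vsir and 0.92 for Fgfr1. Among signalling, actin and membrane genes, it was 0.63 for Rhob, 0.94 for Vav3, 0.50 for Rasa3, 0.82 for Myof, 0.84 for Spint1 and 0.64 for Tifab. Among chaperones, autophagy and lipid genes, it was 0.49 for Dnajb9, 0.28 for Hyou1, 0.50 for Hspa8, 0.45 for Uvrag, 0.42 for Soat1 and 0.63 for Mvd. Among nuclear and other genes, it was 0.33 for Fli1, 0.58 for Tbl1xr1, 0.87 for Uhrf1, 0.77 for Zfp36l1, 0.50 for P4ha1 and 0.38 for Mmp12. Among the M2 values of opposite sign to those in M0, the largest in size were those of Cd40, Cx3cl1, Socs3, Traf1 and Uhrf1, at 0.46, 0.54, 0.49, 0.50 and -0.51.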

How the results depend on the processing

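The number of genes called in M0 stayed within 1.5 times of 1256 with DESeq2, other size factors, both filters on low counts and the 6 libraries alone (947 to 1560). It was 752 and 700 with limma on log2(TPM + 1) and log2(TPM + 0.1), and 458 to 1458 without 1 library. In M2 it was 713 with DESeq2, 70 and 57 with limma at the same pseudocounts, 163 with the 6 libraries alone and 27 to 302 without 1 library. For the difference between M0 and M2 it was 816 with DESeq2, 113 with limma at either pseudocount and 183 to 654 without 1 library. The causes were not tested.

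With the library number as a replicate block, 612 genes were called in M0 and 57 in M2. WT and KO libraries share only that number, as the deviations of same-numbered libraries correlated at -0.0684 to 0.0403. With the mouse as a block, 1002 genes passed the test of the difference, and of the differences printed for single genes it changed the call of Smad6 and Hspa5 and no other.

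Of 128 genes named with a call in M0, 93 kept it in all 6 fits without 1 library. Calls lost were 31 without WT2, 29 without KO3, 26 without KO2, 23 without KO1, 11 without WT1 and 7 without WT3, against 20 with limma, 23 with the replicate block, 18 with the 6 libraries alone and 1 with DESeq2. No called value changed sign under any of these settings. Of the genes named without a call, 6 gained one under 1 or more settings.

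Genes without a call whose log2 fold change changed sign without 1 library ranged over -0.04 to 0.02 for Chuk, -0.02 to 0.03 for Fbl, -0.07 to 0.03 for H2-K1, -0.08 to 0.05 for Hmox1, -0.07 to 0.59 for Ifit1, -0.26 to 0.05 for Igf2bp2, -0.02 to 0.04 for Ikbkb, -0.07 to 0.00 for Keap1, -0.08 to 0.00 for Mki67, -0.14 to 0.09 for Mmp9, -0.10 to 0.31 for Rel, -0.02 to 0.03 for Rela and -0.13 to 0.21 for Xist. Xist stood at -0.05 with limma at either pseudocount. Fbl stood at 0.0 with no filter on low counts. Ikbkb stood at 0.0 with DESeq2 and with RLE size factors, 0.01 with no filter and 0.05 with limma at either pseudocount. Rela stood at -0.01 with limma at either pseudocount, and at 0.0 with the replicate block and with the 6 libraries alone.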
